A study of Mus musculus with 20 samples.

Results

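Plasminogen activators and matrix metalloproteinases were followed through 9 genes: the urokinase receptor Plaur, the activators Plau and Plat, the metalloproteinases Mmp3, Mmp10, Mmp13, Mmp14 and Mmp15, and the inhibitor Timp1. They were chosen by name, as every probe whose gene name in the array design equals 1 of these symbols, which gave 11 probes of the 56605 on the array and 9 of its 25109 named genes. Plau and Plat had 2 probes each. Transcript levels were measured on 20 one-colour Agilent arrays of mouse intestinal tissue, 1 array per sample.

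All mice were on a C57BL6/j background, and the study's methods give an age of 8 to 12 weeks for the mice of the first comparison below, BRAFV600E against Cre control. For the second, MEKi against Vehicle, the age is the 8 to 12 weeks that they state for tamoxifen induction in general. Cre control mice (6 arrays) carried VillinCreER, a tamoxifen-activated Cre recombinase that the Villin promoter drives in gut epithelium, and BRAFV600E mice (6 arrays) carried in addition 1 BrafV600E-LSL allele, from which Cre removes a stop cassette. Both groups received 3 daily tamoxifen injections and were sampled 3 days after the last, so that tamoxifen and Cre were shared and the Braf allele differed. MEKi (4 arrays) stands for the MEK inhibitor PD184352 and Vehicle (4 arrays) for its carrier of DMSO and Cremophor EL. These mice had 2 tamoxifen injections and then 3 daily injections of inhibitor or carrier. That the MEKi and Vehicle mice carried mutant Braf comes from the study's figure legends, since the labels do not give their genotype. The study's methods give 6 mice for each genotype of the first comparison, and the labels give every array a sample code of its own. Whether the 4 MEKi and 4 Vehicle arrays were each from a separate mouse is not said in the labels or methods, so p-values there measure the spread between these samples. A supplementary legend of the study gives 6 animals per genotype for this experiment, which differs from the 4 arrays of each group. The first comparison asks what the mutant kinase changes within days, and the second which levels depend on MEK, the kinase that acts below BRAF.

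Urokinase, encoded by Plau, and tissue plasminogen activator, encoded by Plat, cut plasminogen to plasmin, a broad protease that degrades fibrin and activates some metalloproteinases. The receptor encoded by Plaur holds urokinase at the cell surface. Matrix metalloproteinases degrade matrix proteins and TIMPs block them, and in the gut these genes are known mainly from wound repair, inflammation and tumour invasion, often in stromal and immune cells rather than in epithelium. AP-1 and ETS transcription factors, which ERK signalling below MEK activates, are textbook regulators of Plaur, Plau and several metalloproteinase genes.

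The RefSeq promoter table of build GRCm38.p6 held 7 of the 9 genes, without Plau and Plat. Its windows ran from 250 bases before to 50 bases after each gene's start and were searched for the AP-1 motif TGAGTCA on both strands. Of all 32851 promoters, 5.2% held it, and among the members Plaur, Mmp3, Mmp10 and Mmp13 did, each with 1 match. The 150 bases before the start of these 4 genes are shown, all on the plus strand, because they share the motif while Plaur alone passed the test below. The changes of the 4 genes were not tested against each other. Capitals mark the motif, which reads TGACTCA where it lies on the minus strand. The stretches lie at chr7:24462333-24462482 (Plaur), chr9:7445672-7445821 (Mmp3), chr9:7502192-7502341 (Mmp10) and chr9:7272364-7272513 (Mmp13).
Plaur: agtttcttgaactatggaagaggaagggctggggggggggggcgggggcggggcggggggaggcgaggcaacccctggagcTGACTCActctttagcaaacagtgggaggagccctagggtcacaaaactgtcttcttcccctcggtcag
Mmp3: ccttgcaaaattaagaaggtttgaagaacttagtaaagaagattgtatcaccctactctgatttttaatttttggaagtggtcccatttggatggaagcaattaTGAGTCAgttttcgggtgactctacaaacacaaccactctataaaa
Mmp10: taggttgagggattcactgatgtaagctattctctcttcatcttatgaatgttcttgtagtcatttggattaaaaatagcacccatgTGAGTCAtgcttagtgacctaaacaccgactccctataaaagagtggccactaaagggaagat
Mmp13: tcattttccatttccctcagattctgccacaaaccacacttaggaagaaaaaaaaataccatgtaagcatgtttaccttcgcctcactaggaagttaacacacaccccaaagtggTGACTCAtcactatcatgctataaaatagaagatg

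The motif began 69 bases before the start in Plaur, 46 in Mmp3, 63 in Mmp10 and 35 in Mmp13. Mmp13, Mmp3 and Mmp10 are neighbours, with starts within 229.8 kb on chromosome 9, and each also held TATAAA on the plus strand before its start, which 8.32% of all promoters hold. The ETS motif AGGAAG, searched on both strands, was in 35.35% of all promoters and in those of Plaur, Mmp3, Mmp13, Mmp14 and Timp1. No matches overlapped. These matches are letters in a window and were not tested as binding sites.

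Levels are log2 of the processed signal minus the array's 75th percentile, so 0 is the signal that 3 in 4 probes stay below on that array, and levels of different probes cannot be set against each other. On each array 60.8% to 76.8% of the spots (36032 to 45518) exceeded background well, 0 were saturated. Precision is limited by how many arrays there were. The 6 Cre control arrays shared slide 1 with 2 BRAFV600E arrays (replicates 1 and 2), the remaining 4 BRAFV600E arrays filled slide 2, and MEKi and Vehicle lay on slide 3 in separate rows, so that row and group cannot be told apart there. The scanner software marked the spike-in slope of 7 arrays as out of range. These were the 4 BRAFV600E arrays of slide 2 (replicates 3 to 6), where the slope was recorded as 0 and 53 to 139 of 350 spike-in spots were well above background, and 3 Cre control arrays of slide 1 (replicates 2, 3 and 5), with slopes of 0.759 to 0.843. Values without the 3 controls are written as without the low-slope controls and keep the slide 2 arrays, which values within slide 1 leave out. Y-linked genes, which mark male tissue, had a mean level of -6.25 to -4.92 on 3 of 6 Cre control, 2 of 6 BRAFV600E, 2 of 4 Vehicle and 0 of 4 MEKi arrays, and of -1.30 to -0.96 on the others. The 22 genes of the marker and related lists called in BRAFV600E against Cre control all kept their direction in both settings, but the calls of only 4 held without the low-slope controls (Etv1, Etv4, Etv5 and Krt18) and of 9 within slide 1 (Etv4, Etv5, Krt18, Adamts15, Mmp7, Lyz1, Itln1, Mptx2 and Cd3g). Epithelial markers were well above background on every array (6 of 6 genes), as were those of fibroblasts (8 of 8) and smooth muscle (6 of 6), so the tissue held epithelium and the wall around it. In such bulk tissue fewer cells of a type and less RNA per cell cannot be told apart.

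Of the 9 members, Plaur alone passed the test in either comparison. It was higher in BRAFV600E than in Cre control tissue and lower under MEKi than under Vehicle, while the activators, the metalloproteinases and Timp1 did not pass in either direction. That is 1 of 9 members called in BRAFV600E against Cre control, where 12.5% of 19063 tested genes were called at an adjusted p under 0.05 (6.18% higher and 6.28% lower), and 1 of 9 in MEKi against Vehicle, where 1.98% of 19261 were (1.09% higher and 0.888% lower). The median log2 fold change of the members in BRAFV600E tissue was -0.06, against -0.02 over all tested genes, and under MEKi 0.13, against 0.04. All 9 members had passed the filter on dim probes in both comparisons.

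**Figure D1:**
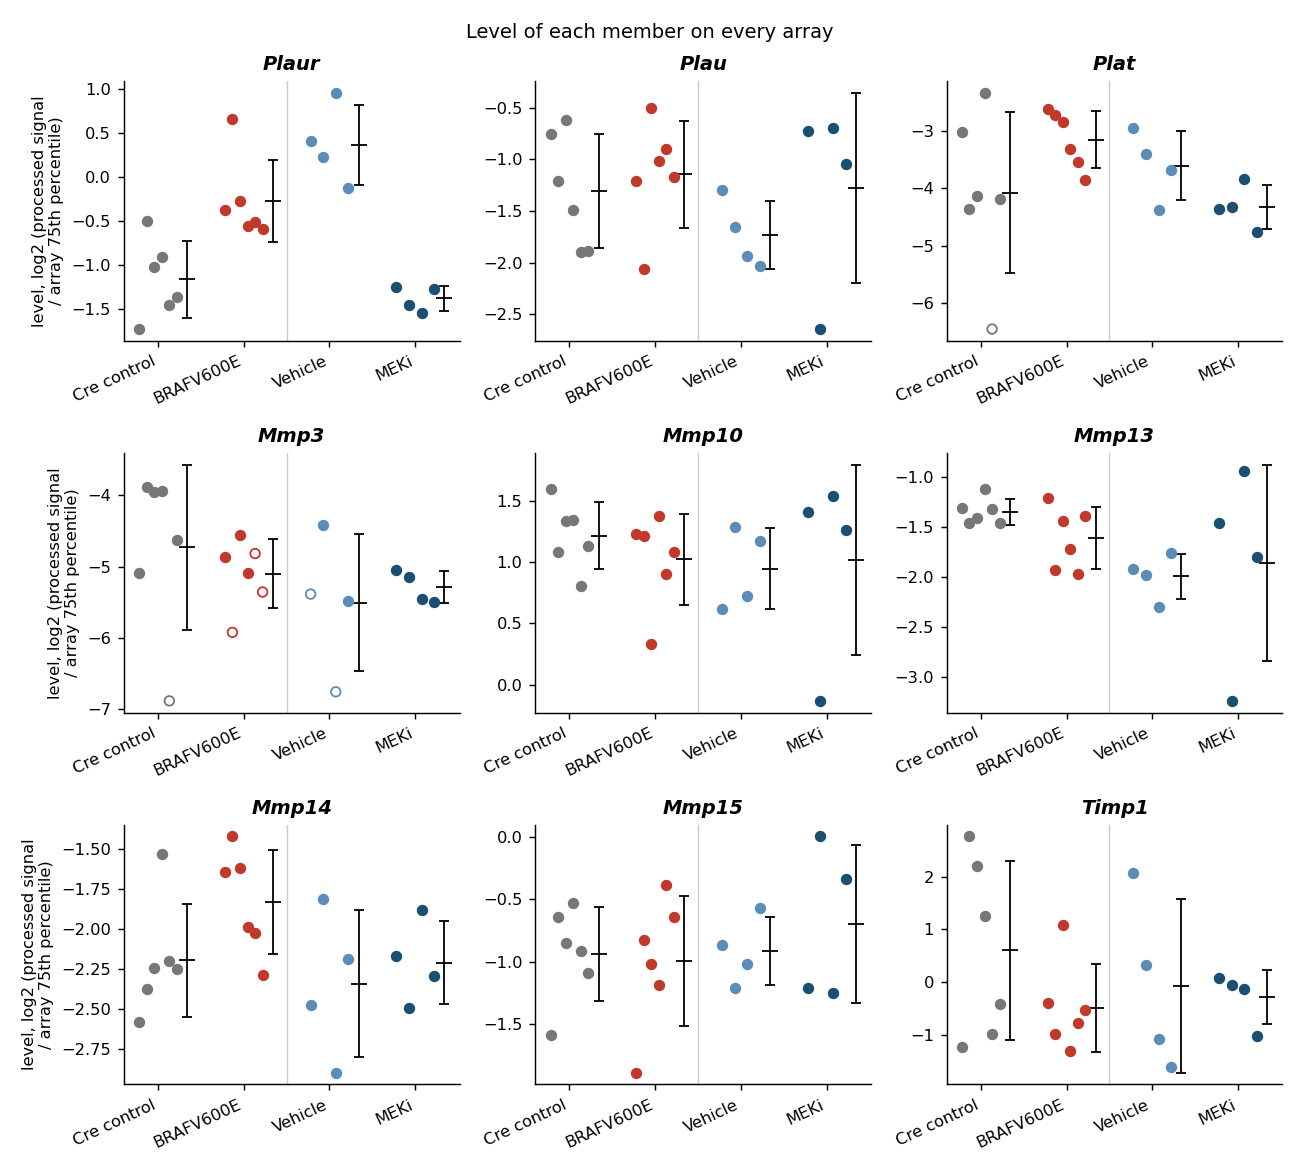
Level of each of the 9 members on every array, as log2 of the processed signal minus the array's 75th percentile (y axis; each panel has its own range). Points are arrays, open where the probe was not well above background, and black marks give the mean and SD of the 6 Cre control, 6 BRAFV600E, 4 Vehicle and 4 MEKi arrays. Plaur is the only panel in which the MEKi arrays, from -1.54 to -1.25, lie apart from the Vehicle arrays, from -0.12 to 0.96.

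Plaur was read by 1 probe, at chr7:25260569-25260628 in the mm9 coordinates of the array files, well above background on all 20 arrays. On the Cre control arrays its level ran from -1.72 through a median of -1.19 to -0.50, and on the BRAFV600E arrays from -0.58 through -0.44 to 0.66. The groups overlapped through a single control: 5 of 6 Cre control arrays lay below every BRAFV600E array, and replicate 2, at -0.50, lay among them. The means were -0.27 ± 0.47 and -1.16 ± 0.44 (SD, n = 6 each). They differed by 0.89 on the log2 scale (SE 0.25, 95% interval 0.35 to 1.43), or 1.85-fold, with an adjusted p of 0.0367 from limma, rank 1860 among the tested genes by p.

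The call in BRAFV600E tissue lay close to the threshold. Under 25 alternatives the log2 fold change stayed positive, from 0.70 to 1.70, and the adjusted p from limma ran from 0.00589 to 0.0967, past the threshold in 13 and short of it in 12. The highest value, 1.70, came without scaling between arrays, where the median of all genes was 0.79. Leaving out any of 8 arrays was enough to lose the call, namely Cre control replicates 1, 3, 5 and 6 and BRAFV600E replicates 1, 2, 3 and 4. BRAFV600E replicate 2 stood apart at 0.66, and without it the log2 fold change was 0.70 with an adjusted p of 0.0539.

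Slide and spike-in quality touched the same value. The 4 BRAFV600E arrays of slide 2 averaged -0.48 ± 0.14 (SD) and the 2 of slide 1 averaged 0.14 ± 0.72. Within slide 1 the log2 fold change was 1.30 with an adjusted p of 0.0967, and with slide as a block it was 1.30 with an adjusted p of 0.0302. Both estimates rest on the same 2 BRAFV600E arrays, at -0.37 and 0.66, because all Cre control arrays lay on slide 1. Without the 3 low-slope controls the log2 fold change was 1.06 (adjusted p = 0.0967), and with the Y-linked level as a covariate 0.84 (adjusted p = 0.0629), all from limma.

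In MEKi against Vehicle the estimated difference in Plaur was larger in size, -1.74 against 0.89, and the 2 were not tested against each other. The 4 Vehicle arrays read 0.41, 0.23, 0.96 and -0.12, and the 4 MEKi arrays read -1.25, -1.45, -1.54 and -1.27. Every MEKi array lay below every Vehicle array, as was so in this direction for 5.75% of the tested genes. This was so for 1 of 9 members, where 12.2% of all tested genes had groups apart in either direction, and for 0 of 9 in BRAFV600E against Cre control, where 7.36% had. The means were -1.38 ± 0.14 and 0.37 ± 0.45 (SD, n = 4 each). The log2 fold change was -1.74 (SE 0.22, 95% interval -2.26 to -1.23), or 3.35-fold lower, with an adjusted p of 0.0137 from limma, rank 64 of 19261. It lay between -2.07 and -1.55 under 18 alternatives and lost its call in 1, without MEKi replicate 3 (adjusted p = 0.052). With the Y-linked level as a covariate it was -2.07 (adjusted p = 0.0353).

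**Figure D2:**
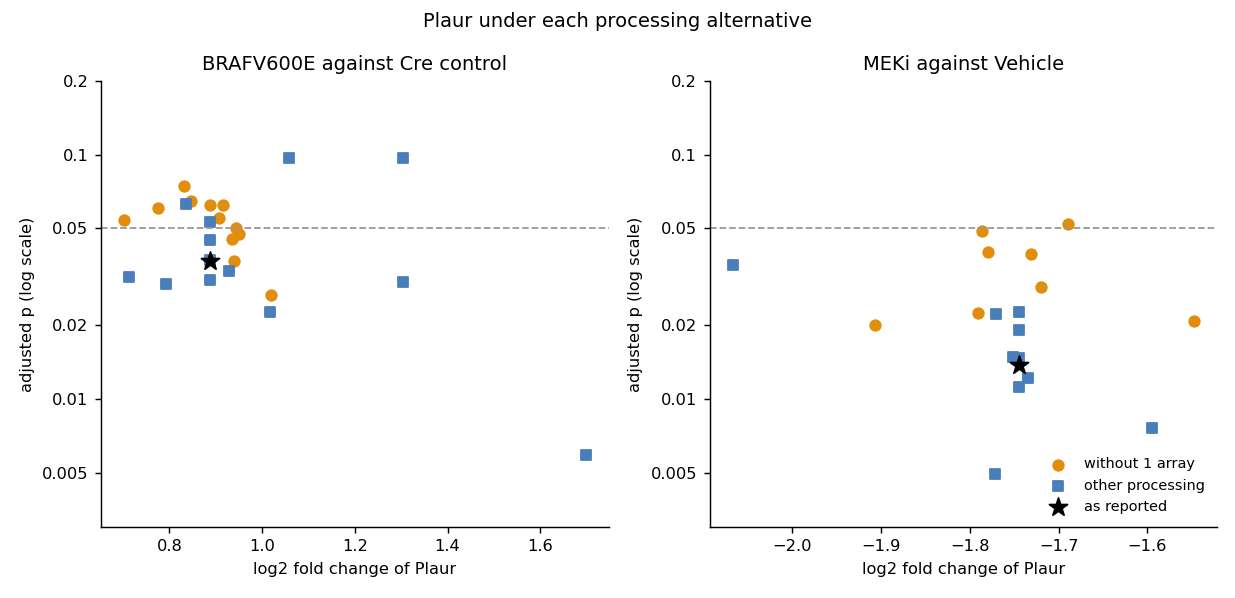
Log2 fold change of Plaur (x axis) against its limma adjusted p (y axis, log scale) for the reported value (star), without each array in turn (circles) and under the other processing alternatives (squares), with the threshold of 0.05 dashed. The BRAFV600E values spread across the line, 12 of 25 above it, whereas in MEKi against Vehicle 1 of 18 lies above.

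Marker transcripts of several cell types differed between the groups in which Plaur was measured. In BRAFV600E against Cre control, 4 of 5 tested Paneth cell markers fell (Lyz1, Itln1, Defa24 and Mptx2), and the mean level of the list ran from 3.65 to 6.31 on BRAFV600E arrays and from 6.79 to 7.49 on Cre control arrays. T cell markers fell in 2 of 5 (Cd3g and Cd8a, mean level -0.13 to 1.49 against 1.05 to 2.21) and macrophage markers in 2 of 6 (Csf1r and Cx3cr1, 1.19 to 1.86 against 1.42 to 2.24). Epithelial markers rose in 2 of 6 (Krt18 and Cdh1, 6.18 to 6.69 against 5.86 to 6.30) and smooth muscle markers in 2 of 6 (Des and Actg2, 3.01 to 3.91 against 2.78 to 3.44). None of 8 fibroblast and 5 endothelial markers, nor of 4 tested neutrophil markers, was called. In MEKi against Vehicle the T cell marker Gzmb rose, 1 of 5, with a list mean of 1.15 to 1.94 against 0.15 to 1.01, and no marker of the other lists was called. Among the cell type markers these groups lay apart upward for 3 of 5 T cell markers (Gzmb, Gzma and Cd8a) and for Mptx2. They lay apart downward for Krt18. Such separation was seen in 6.44% of tested genes upward and 5.75% downward. Over all tested genes 6.18% were called higher and 6.28% lower in the first comparison, and 1.09% and 0.888% in the second. Of the calls in BRAFV600E tissue, those of Krt18, Lyz1, Itln1, Mptx2 and Cdh1 held in 22 or more of 25 alternatives and those of Defa24, Cd3g, Cd8a, Cx3cr1 and Actg2 in 10 to 13. Without the low-slope controls Lyz1 was at -1.95 (adjusted p = 0.0525), Itln1 at -2.08 (0.0836), Mptx2 at -3.46 (0.0794) and Cdh1 at 0.57 (0.144), no longer called by limma. Without scaling Csf1r and Cx3cr1 were above 0 (0.12 and 0.26) but below the median of all genes in that setting, 0.79. With the mean of a gene's probes Des was below 0 (-0.42). Gzmb held in 6 of 18. No marker on the array lay below background throughout a group, and the part of these cells in the Plaur values was not tested.

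Across the 20 arrays, centred within each experiment, the genes most like Plaur among 15391 genes were Rnd3 (Pearson r = 0.91), which encodes a small GTP-binding protein of the cytoskeleton, Asap1 (r = 0.89), an Arf GTPase-activating protein, and Tm4sf4 (r = 0.88), a tetraspan membrane protein. These values describe arrays that share 2 experiments and their group differences. Among the members the highest r with Plaur was 0.41, for Plat.

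The plasminogen activators Plau and Plat did not pass the test. Plau, urokinase itself, was read by a probe at chr14:21662487-21662546 that was well above background on all 20 arrays, while its other probe, at chr14:21659855-21660221, was well above background on none. Its level ran from -1.90 through -1.35 to -0.62 on the Cre control arrays and from -2.07 through -1.09 to -0.50 on the BRAFV600E arrays, so that the groups lay over each other. The log2 fold change was 0.16 (SE 0.29, 95% interval -0.46 to 0.79, adjusted p = 0.75 from limma), and within slide 1 it was -0.33. On slide 3 the Vehicle arrays read -1.30, -1.65, -1.94 and -2.04 and the MEKi arrays -0.73, -2.64, -0.70 and -1.04. Thus 3 of 4 MEKi arrays lay above every Vehicle array and replicate 2 lay below all of them. Their log2 fold change of 0.45 (SE 0.43) had an adjusted p of 0.681 from limma, and without MEKi replicate 2 it was 0.91 (adjusted p = 0.080).

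Plat, tissue plasminogen activator, went the way of Plaur in both means without passing the test. Its probe lies at chr8:23892531-23892590, and a further probe, at chr8:23886301-23886360, was well above background on no array. Cre control levels ran from -6.45 through -4.15 to -2.34, with the lowest, replicate 5, not well above background, and BRAFV600E levels from -3.85 through -3.08 to -2.62. Of the 6 Cre control arrays, 4 lay below every BRAFV600E array and 1, replicate 4, lay above them all. Between the genotypes it differed by 0.93 on the log2 scale (SE 0.55, 95% interval -0.26 to 2.11, adjusted p = 0.276 from limma), by 0.45 without Cre control replicate 5 and by 0.03 without the 3 low-slope controls. Vehicle arrays read -2.95, -3.41, -4.37 and -3.68 and MEKi arrays -4.36, -4.32, -3.83 and -4.76, a log2 fold change of -0.72 (SE 0.32, 95% interval -1.45 to 0.01, adjusted p = 0.315 from limma). The groups overlapped through Vehicle replicate 3 alone, at -4.37.

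**Figure D3:**
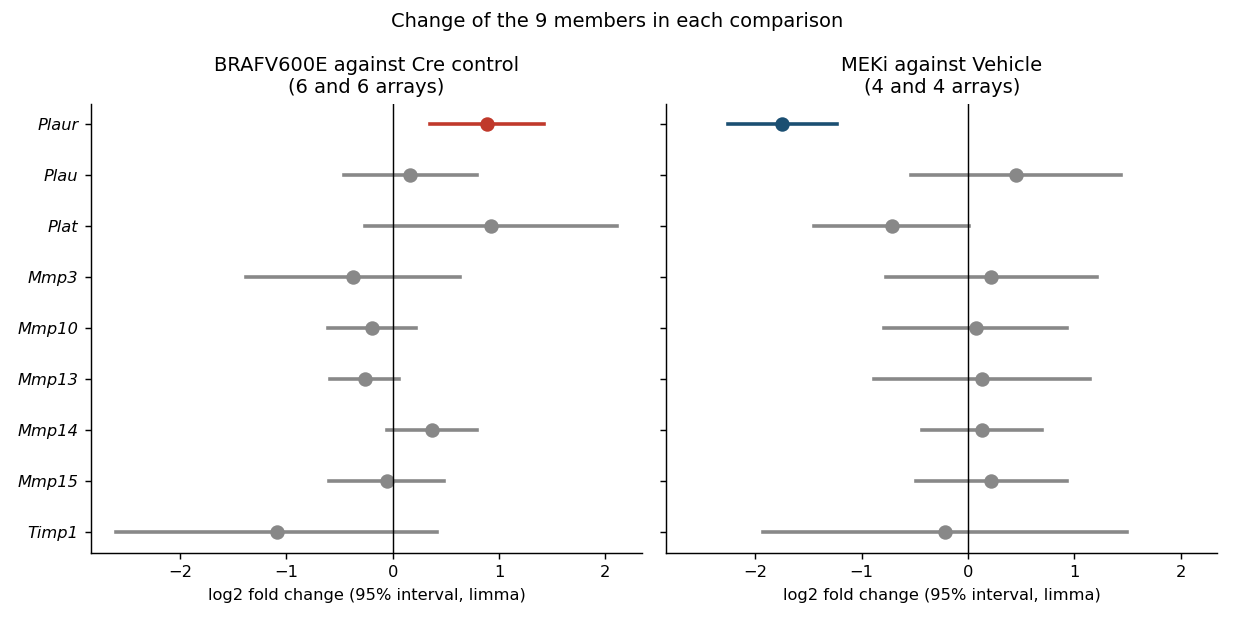
Log2 fold change of each member (x axis) in BRAFV600E against Cre control (left; 6 and 6 arrays) and MEKi against Vehicle (right; 4 and 4 arrays), with the 95% interval of the limma fit as a bar. Red is called higher and blue called lower at an adjusted p under 0.05, and grey is not called. Only the Plaur bars lie clear of 0, at 0.35 to 1.43 and -2.26 to -1.23.

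Among the metalloproteinases, the 3 neighbours on chromosome 9 whose promoters share the AP-1 motif with Plaur were not called in either comparison. Mmp10, stromelysin-2, was well above background on all 20 arrays. Its level (probe at chr9:7510011-7510070) ran from 0.81 through 1.24 to 1.60 on Cre control arrays and from 0.33 through 1.15 to 1.38 on BRAFV600E arrays, which overlapped throughout. Limma put the log2 fold change at -0.19 (SE 0.19, adjusted p = 0.530), and its 95% interval of -0.61 to 0.22 covers 0.657- to 1.16-fold. Vehicle arrays read 0.62, 1.28, 0.72 and 1.17 and MEKi arrays 1.41, -0.13, 1.54 and 1.26, of which replicate 2 lay below and 2 arrays lay above every Vehicle array. Here the log2 fold change was 0.07 (SE 0.37, adjusted p = 0.951 from limma) and 0.46 without that array (adjusted p = 0.273).

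Mmp13, collagenase-3 (probe at chr9:7282762-7282821), had the narrowest spread of the members between genotypes, with a pooled SD of 0.238 where the median over all tested genes was 0.370. Cre control levels ran from -1.46 through -1.36 to -1.11 and BRAFV600E levels from -1.97 through -1.58 to -1.21. Of the BRAFV600E arrays 3 lay below every Cre control array, and the other 3 lay among them. The log2 fold change of -0.26 (SE 0.15, 95% interval -0.59 to 0.06) had an adjusted p of 0.261 from limma, so that a fall below 0.664-fold lay outside the interval. Vehicle arrays read -1.92, -1.98, -2.29 and -1.76 and MEKi arrays -1.46, -3.23, -0.94 and -1.80, with a log2 fold change of 0.13 (SE 0.44, adjusted p = 0.927 from limma) and 0.59 without replicate 2.

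Mmp3, stromelysin-1 (probe at chr9:7455751-7455810), was dim. It was well above background on 5 of 6 Cre control, 3 of 6 BRAFV600E, 2 of 4 Vehicle and 4 of 4 MEKi arrays. The level ran from -6.88 through -4.29 to -3.88 on Cre control arrays and from -5.92 through -4.97 to -4.55 on BRAFV600E arrays, of which none reached the 3 highest controls, replicates 2, 3 and 4. Its log2 fold changes were -0.37 (SE 0.46, 95% interval -1.38 to 0.64, adjusted p = 0.637) and 0.22 (SE 0.43, 95% interval -0.77 to 1.22, adjusted p = 0.863), both from limma. The first was -0.80 without Cre control replicate 5, the lowest array and not well above background (adjusted p = 0.104 from limma). With normexp background correction it was -0.50 (adjusted p = 0.0591 from limma). Over 24 alternatives it ran from -0.80 to 0.44, the last without scaling, and never passed the threshold. Vehicle arrays ran from -6.75 to -4.41 and enclosed the MEKi arrays, from -5.49 to -5.05.

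MEKi replicate 2 was the lowest MEKi array for Plau, Mmp10, Mmp13 and Mmp14 at once and, for Mmp15, the highest. Its stromal markers were low as well: the mean level of the 5 endothelial markers was -2.80 there and -1.24 to -0.93 on the other MEKi arrays, and that of the 8 fibroblast markers 1.08 against 1.49 to 1.89. So were its macrophage markers, at 0.92 against 1.40 to 1.58, and its T cell markers, at 1.15 against 1.52 to 1.94. Smooth muscle (3.36), Paneth cell (7.62) and neutrophil (-1.51) markers lay within the range of the other MEKi arrays, and epithelial markers, at 6.56, lay above theirs of 6.39 to 6.54. The part of these cells in the 5 values was not tested. Without that array Plaur had a log2 fold change of -1.72 (adjusted p = 0.0287 from limma), and no other member was called.

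The membrane-bound enzymes were Mmp14 and Mmp15. Mmp14, which activates pro-Mmp2 at the cell surface (probe at chr14:55058775-55058834), ran from -2.58 through -2.25 to -1.53 on Cre control arrays and from -2.29 through -1.81 to -1.42 on BRAFV600E arrays. A single control, replicate 4 at -1.53, lay apart from the other 5, which ended at -2.20. For Mmp14 this gave a log2 fold change of 0.37 (SE 0.20, 95% interval -0.06 to 0.79, adjusted p = 0.228 from limma), and of 0.67 within slide 1 (adjusted p = 0.198). With normexp background correction it was 0.05 (adjusted p = 0.825 from limma). Vehicle arrays read -2.48, -1.81, -2.90 and -2.19 and MEKi arrays -2.17, -2.50, -1.88 and -2.30, a log2 fold change of 0.13 (SE 0.25, adjusted p = 0.854 from limma). The MEKi arrays lay inside the Vehicle range.

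Mmp15, another membrane-type enzyme (probe at chr8:97897703-97897762), showed the smallest difference between genotypes. Its level ran from -1.59 through -0.88 to -0.53 on Cre control and from -1.89 through -0.92 to -0.38 on BRAFV600E arrays. A log2 fold change of -0.06 (SE 0.25, 95% interval -0.59 to 0.48, adjusted p = 0.910 from limma) changed sign under several alternatives. Under MEKi the arrays read -1.21, 0.00, -1.25 and -0.33 and under Vehicle -0.87, -1.21, -1.02 and -0.57, which gave 0.22 (SE 0.31, adjusted p = 0.799 from limma).

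Timp1, a secreted inhibitor of most metalloproteinases (probe at chrX:20451675-20451733), was the most variable member. Its pooled SD was 1.35 among BRAFV600E and Cre control arrays and 1.22 among MEKi and Vehicle arrays, above that of 98.3% and 97.6% of the tested genes. Cre control levels ran from -1.24 through 0.42 to 2.77 and BRAFV600E levels from -1.31 through -0.66 to 1.09. Replicates 2, 3 and 4 of the Cre control group, at 2.77, 2.21 and 1.25, lay above every BRAFV600E array, and the other 3 lay among them. The log2 fold change was -1.09 (SE 0.70, 95% interval -2.60 to 0.42, adjusted p = 0.315 from limma), and without the 3 low-slope controls it was -0.36. Vehicle arrays read 2.08, 0.33, -1.09 and -1.61 and enclosed the MEKi arrays, at 0.08, -0.07, -0.13 and -1.04, with a log2 fold change of -0.21 (SE 0.75, adjusted p = 0.929 from limma).

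Timp1 followed S100a8 and S100a9, which varied most among the 5 neutrophil markers, across arrays of all groups. Over the 20 arrays, centred within each experiment, r with Timp1 was 0.97 for S100a8, which was well above background on 17 arrays, and 0.94 for S100a9. The latter was the closest of the genes well above background on every array, and both were singled out after their values were seen. The other markers gave lower values, 0.58 for Cxcr2 (well above background on 11 arrays), 0.20 for Csf3r and 0.14 for Ly6g. With the mean of the 5 markers r was 0.96, and that mean follows mainly S100a8 and S100a9, whose SDs over the arrays were 2.33 and 2.20 against 0.26 to 0.61 for the others. S100a9, a calcium-binding protein abundant in neutrophils, was at 4.50, 2.36 and 2.13 on Cre control replicates 2, 3 and 4 and at -2.86, -1.85 and 0.71 on replicates 1, 5 and 6. The mean of the marker list ran from -1.67 to 1.52 on Cre control, -2.03 to -0.05 on BRAFV600E, -2.23 to 0.43 on Vehicle and -1.67 to -0.89 on MEKi arrays. The part of these cells in the Timp1 values was not tested.

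**Figure D4:**
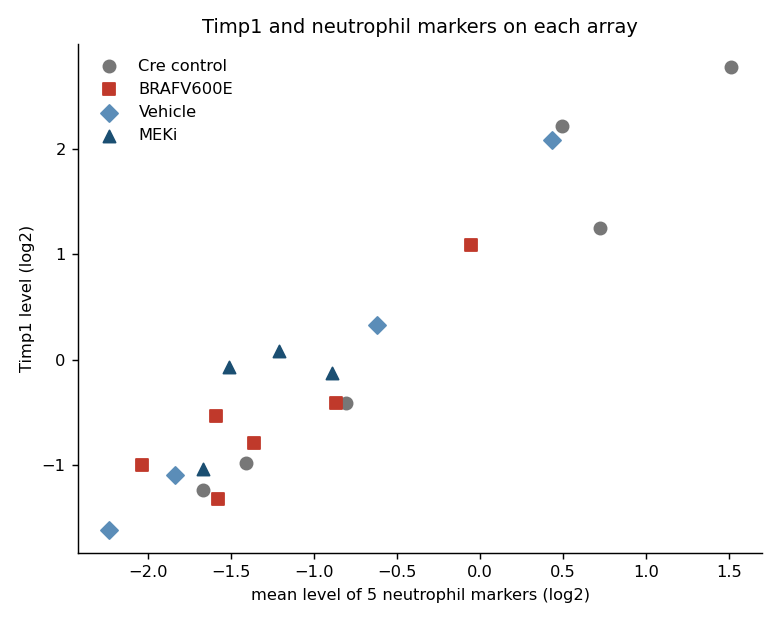
Timp1 level (y axis, log2) against the mean level of 5 neutrophil markers (x axis, log2) on each of the 20 arrays, by group. Both run from low to high within the Cre control and Vehicle groups, with Timp1 at 2.77 on the control array of the highest marker level, 1.52, and the spread along the x axis comes mainly from S100a8 and S100a9.

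Metalloproteinases outside the 9 genes were few on these arrays: of 18 others, 11 passed the filter in each comparison, and Mmp7 was the only one called. Mmp7, matrilysin, which Paneth cells make and which activates their defensins, fell in BRAFV600E tissue to 2.33 ± 1.03 from 4.43 ± 0.22 (SD, n = 6 each). The difference was -2.10 on the log2 scale (SE 0.39, adjusted p = 0.00629 from limma), with no overlap between the groups. Such separation downward was seen in 3.17% of tested genes. The call held in 24 of 25 alternatives and was lost without the 3 low-slope controls (-2.25, adjusted p = 0.064). It went with the fall of the Paneth cell markers given above, and the part of those cells in it was not tested. In MEKi against Vehicle it was at 5.30 ± 0.54 and 3.98 ± 1.16 (SD, n = 4 each), without overlap (6.44% of genes upward), yet its log2 fold change of 1.32 had an adjusted p of 0.289 from limma. The median log2 fold change of the 11 tested genes was -0.31 in the first and -0.15 in the second comparison. The 2 sets differ, since Mmp16 was tested only in the first and Mmp24 only in the second.

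In the rest of the plasminogen system 2 of 12 tested genes rose and 0 fell in BRAFV600E tissue, where 12.5% of all genes were called. Both encode proteins that bind plasminogen at the cell surface: Anxa2 (log2 fold change 0.55, SE 0.17, adjusted p = 0.0481 from limma) and Plgrkt (0.51, SE 0.15, adjusted p = 0.0405 from limma). Each lay close to the threshold, with the call kept in 9 of 25 alternatives for Anxa2 and 10 for Plgrkt. None of 12 was called in MEKi against Vehicle, where Anxa2 was at -0.61 (adjusted p = 0.136) and Plgrkt at 0.08. The other inhibitors of metalloproteinases (Timp2, Timp3, Timp4 and Reck) were called in neither comparison, with medians of -0.41 and 0.14. Reck, a membrane-anchored inhibitor, came nearest, at -0.66 (SE 0.20, adjusted p = 0.051 from limma) in BRAFV600E tissue.

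Proteases and matrix genes that moved the same way as Plaur in both comparisons lay in the remaining lists. Adamts15, a secreted metalloproteinase that cuts proteoglycans, rose by 1.17 (SE 0.19, adjusted p = 0.00319) on the log2 scale in BRAFV600E tissue and fell by 1.98 (SE 0.31, adjusted p = 0.0239) under MEKi, from limma. It was the only gene of its list called higher in the first (1 of 11, against 6.18% of all tested genes). In the second it was the only gene called (1 of 12, against 1.98%). Adam15, a membrane sheddase, fell in the first by 0.77 (SE 0.19, adjusted p = 0.0205 from limma). It was at 0.04 without scaling, where the median of all genes was 0.79. The Adamts15 calls held in 24 of 25 and 12 of 18 alternatives, and the first was lost without the low-slope controls (1.07, adjusted p = 0.0625 from limma). Of 15 matrix and basement membrane genes, 2 rose in BRAFV600E tissue, where 6.18% of all tested genes were called higher. These were Lamb3, by 1.34 (adjusted p = 0.0152), and Col4a1, by 0.77 (adjusted p = 0.0444), by limma. Lamb3, which encodes a chain of an epithelial laminin, was also the 1 that fell under MEKi, by 1.58 (adjusted p = 0.0416 from limma), where 0.888% of all tested genes were called lower. Its BRAFV600E arrays all lay above its Cre control arrays, as for 4.19% of the tested genes. In BRAFV600E tissue the call of Lamb3 held in 23 and of Col4a1 in 9 of 25 alternatives, and under MEKi that of Lamb3 in 6 of 18. The first call of Lamb3 was lost within slide 1 (1.73, adjusted p = 0.0731) and without the low-slope controls (1.31, adjusted p = 0.0838), by limma.

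Of the factors named in the background, 3 ETS genes were called and no AP-1 gene was. Etv4 rose by 2.50 (SE 0.27, adjusted p = 0.000172) and Etv5 by 1.00 (SE 0.11, adjusted p = 0.000297) in BRAFV600E tissue, and Etv1 fell by 0.73 (SE 0.20, adjusted p = 0.0358). That made 3 called of 12, against 12.5% of all tested genes. Under MEKi, Etv4 fell by 2.95 (SE 0.23, adjusted p = 0.0033) and Etv5 by 2.57 (SE 0.17, adjusted p = 0.00156), all from limma. That made 2 of 12, against 1.98% of all tested genes. The calls of Etv4 and Etv5 held in 25 of 25 and 18 of 18 alternatives, and that of Etv1 in 10 of 25. Without scaling Etv1 was at 0.08, where the median of all genes was 0.79. Transcript levels of a factor do not give its activity, and no link from these factors to Plaur was tested.

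**Figure D5:**
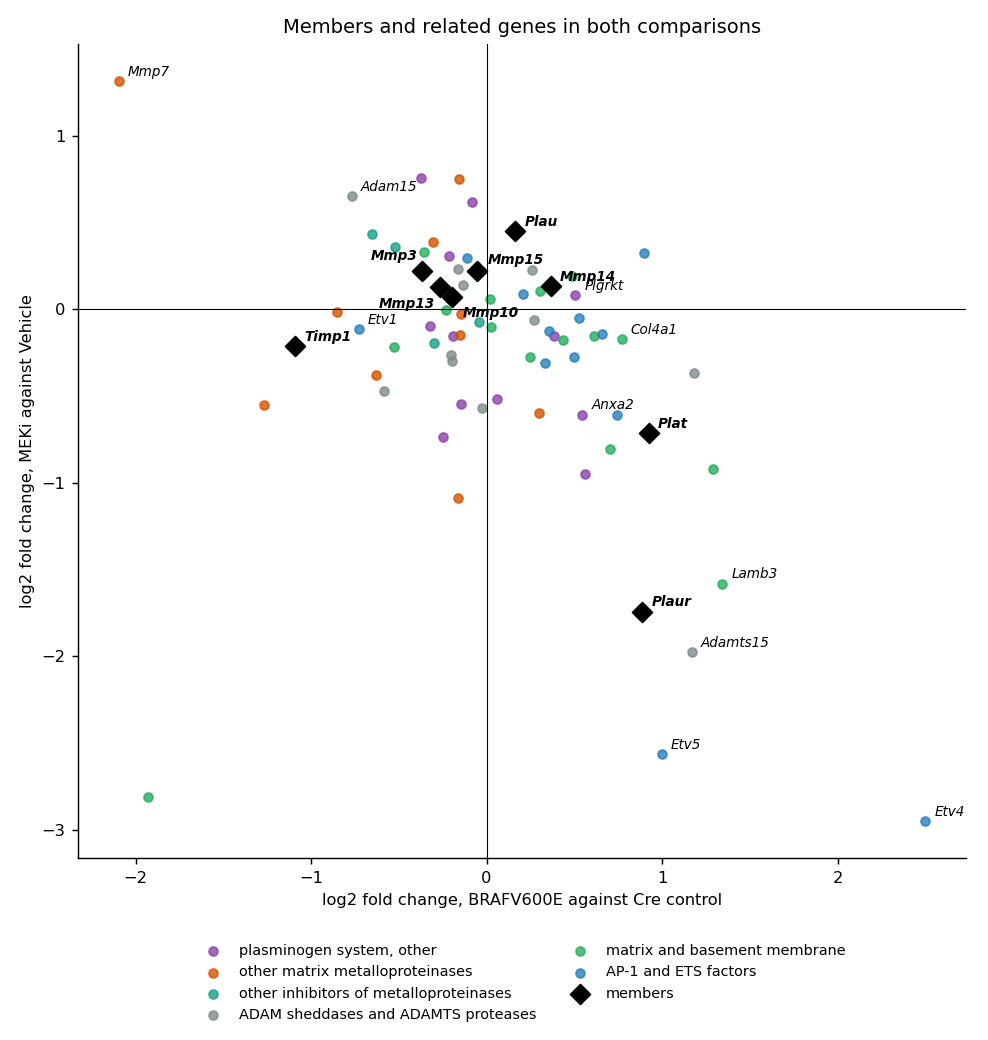
Log2 fold change in BRAFV600E against Cre control (x axis) and in MEKi against Vehicle (y axis) of the 9 members (diamonds) and of the tested genes of 6 related lists (circles, coloured by list), with members and called genes named. The 2 comparisons share no arrays. Plaur, at 0.89 and -1.74, lies at the lower right with Adamts15, Lamb3, Etv5 and Etv4, and the 5 metalloproteinases lie near the centre, between -0.37 and 0.37.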

How the data were processed

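Per the file headers, the authors scanned 1-colour Agilent SurePrint G3 Mouse arrays and ran Agilent Feature Extraction (version 10.5.1.1), which subtracted background and wrote a processed intensity per spot, linear and not scaled between arrays. The authors' deposited marks, of another kind (0 or 1: well above background, saturated, outlier), served as filters, and the deposited series matrix held the same intensity as the scanner tables. Here control and outlier spots were left out, log2 of the processed intensity was taken, each array's 75th percentile was subtracted and copies of a probe were averaged. The brightest probe stood for a gene. Probes were named by accession, symbol or synonym through RefSeq genes of GRCm38.p6 (34790, 9335 and 297 probes); 12183 stayed unnamed. Probe coordinates are mm9, and whether a probe lies in an exon or UTR was not analysed here.

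Genes well above background on at least 6 of 12 or 4 of 8 arrays were tested across all genes with limma 3.58.1 (R 4.3.3, lmFit and eBayes, two-sided, without covariates, after the methods of the study), each comparison on its own arrays, with Benjamini-Hochberg adjustment and a threshold of 0.05. The fit was tested on simulated data. Replicate numbers follow accession order and pair nothing. A treatment text that is the same for every array and matches no group was not used. The members, gene lists and tests were chosen with earlier results of these data known. Named were all members, called genes of the lists (at most 4 a list, 1 gene of the matrix list not being reported here) and the 3 genes most like a member called in BRAFV600E against Cre control. Background correction, scaling, filter, probe choice, covariate, weights, slide and each array were varied.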

Additional observations from a re-analysis of the deposited data

Results flagged for a closer look

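In 36 groups of arrays (9 genes in 4 groups) the highest or lowest array was compared with the rest by Dixon's ratio. Chance marks about 1 in 20 groups, or 1.8 of these, and 3 were marked. Plaur on BRAFV600E replicate 2 was at 0.66, above the other 5 arrays at -0.58 to -0.27. Mmp10 on MEKi replicate 2 was at -0.13, below the other 3 at 1.26 to 1.54. Mmp14 on Cre control replicate 4 was at -1.53, above the other 5 at -2.58 to -2.20.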

How the results depend on the processing

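In BRAFV600E against Cre control the 1 member called became 4 without scaling between arrays (Plaur, Plau, Plat and Mmp14), where the median of all genes moved from -0.02 to 0.79, and 0 with no filter on dim probes, with the Y-linked covariate, within slide 1 and without the 3 low-slope controls. Leaving out 1 array gave 0 to 1. In MEKi against Vehicle the count was 0 to 1 when 1 array was left out. The median of all genes in BRAFV600E against Cre control moved to 0.11 with array medians and to -0.13 with normexp.

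Signs of members that were not called turned as follows. Without scaling, Mmp3 was at 0.44, Mmp10 at 0.61, Mmp13 at 0.54 and Mmp15 at 0.75, each below the shift of all genes. With slide as a block and within slide 1, Plau was at -0.33 and Mmp10 at 0.0044. Mmp15 was at 0.073 with array medians and 0.080 without the 3 low-slope arrays. Leaving out 1 array moved it between -0.19 and 0.12, above 0 without Cre control replicates 2 (0.0034) and 4 (0.025) and BRAFV600E replicate 1 (0.12). In MEKi against Vehicle, leaving out 1 array gave -0.10 to 0.46 for Mmp10, below 0 without MEKi replicates 1, 3 and 4 (-0.058, -0.10 and -0.0090) and Vehicle replicates 1 and 3 (-0.039 and -0.0036). It gave -0.18 to 0.59 for Mmp13, below 0 without MEKi replicates 1 (-0.0034) and 3 (-0.18). It gave -0.73 to 0.50 for Timp1, above 0 without MEKi replicate 4 (0.036) and Vehicle replicate 1 (0.50). It gave -0.19 to 0.59 for Mmp3 and -0.053 to 0.31 for Mmp14, lowest without Vehicle replicate 3, and -0.014 to 0.40 for Mmp15, lowest without MEKi replicate 2. The causes were not tested. Of all gene-level values, 196 in the first and 149 in the second comparison kept direction and side of the threshold.

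Genes called over the whole array ran from 426 (without the 3 low-slope arrays) to 9343 (no scaling) around 2376, and from 53 (Y-linked covariate) to 1133 (array weights) around 381. Calls higher made up 49.6% of the 2376, and 98.1% without scaling, 73.9% with array medians, 34.2% with normexp, 30.2% with slide as a block and 26.3% within slide 1. No paired analysis was possible because replicate numbers only follow accession order.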
